A study of Mus musculus with 6 samples.

Results

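The genes described here are the Toll-like receptors *Tlr1*, *Tlr2*, *Tlr3*, *Tlr4*, *Tlr6*, *Tlr7*, *Tlr9* and *Tlr13*, the co-receptor *Cd14* and the adaptor *Myd88*. They were taken by gene name from the authors' table of read counts, which held all 10 of them among 54532 genes. RNA was sequenced from GFP+ acute myeloid leukemia (AML) cells sorted from mouse bone marrow, with 3 *WT Phf6,RE9a* libraries (numbered 1, 2 and 3 in their labels) and 3 *VC Phf6,RE9a* libraries (numbered 11, 12 and 13). Per the study's methods, fetal liver cells of *Phf6* fl/y male mice, without or with the Vav1-Cre transgene, were infected with a retrovirus that carries RUNX1-ETO9a (RE9a) and GFP and passed serially through male recipients. Both groups carry the floxed *Phf6* allele and RE9a. Only *VC Phf6,RE9a* cells carry Vav1-Cre, which acts in blood-forming cells. Passage and age of the mice are not given in the labels, and neither is whether a group's libraries stem from different leukemias. The p-values below measure only the spread between these libraries, which may be technical.

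Toll-like receptors bind molecules that are common to microbes. TLR1, TLR2, TLR4 and TLR6 sit on the cell surface, where TLR2 pairs with TLR1 or TLR6 to bind lipoproteins and TLR4 binds lipopolysaccharide. TLR3, TLR7, TLR9 and TLR13 sit in endosomes and bind nucleic acids. CD14 hands lipopolysaccharide to TLR4, and MyD88 connects all of these receptors except TLR3 to kinases that activate NF-κB. Monocytes, macrophages, neutrophils, dendritic cells and B cells use different sets of these receptors, and the pathway is the textbook route from microbial products to NF-κB in myeloid cells.

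Promoter windows from RefSeq on GRCm38.p6 (250 bases before to 50 bases after a start) were matched by symbol for 7 of the 10 genes, in 9 windows, and not for *Tlr4*, *Tlr7* and *Cd14*. Stretches that overlap no GENCODE M21 exon are shown for 3 genes on which the results turn, 5′ to 3′ on the strand of the gene. *Tlr2* (chr3:83841768-83841858, minus strand) passed the test, *Myd88* (chr9:119340042-119340268, minus strand) had an interval narrow around no change, and *Tlr13* (chrX:106143025-106143203, plus strand) was the receptor with the highest mean level per length in *WT Phf6,RE9a* cells. Capitals mark matches to the NF-κB consensus or to the PU.1 core GAGGAA on either strand.
Tlr2: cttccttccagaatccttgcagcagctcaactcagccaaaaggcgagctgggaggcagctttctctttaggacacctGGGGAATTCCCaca
Myd88: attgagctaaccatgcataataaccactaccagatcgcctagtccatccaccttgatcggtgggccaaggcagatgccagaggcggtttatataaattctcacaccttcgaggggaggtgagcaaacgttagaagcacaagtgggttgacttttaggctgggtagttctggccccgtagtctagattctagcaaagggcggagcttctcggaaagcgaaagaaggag
Tlr13: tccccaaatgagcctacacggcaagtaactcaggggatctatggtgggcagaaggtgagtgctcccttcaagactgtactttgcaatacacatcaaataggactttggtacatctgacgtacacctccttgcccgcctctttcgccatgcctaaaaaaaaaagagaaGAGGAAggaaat

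The capitals in *Tlr2* are overlapping matches to the NF-κB consensus, and those in *Tlr13* are a PU.1 core. Over the full windows, the NF-κB consensus was matched in *Tlr2* and *Tlr3* and in 4.51% of all 32851 promoter windows. The PU.1 core was matched in *Tlr1*, *Tlr9* and *Tlr13* and in 28.3% of all windows. The RUNX core TGTGGT, the site read by the DNA-binding part of RUNX1 that RE9a retains, was matched in 1 window of *Tlr6* and in 16.8% of all windows. The matches are letters in a window and were not tested for binding.

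The libraries held between 15675358 and 16817994 counts, and a value of 0 allows up to 3 counts, which is 0.203 CPM or less (counts per 1000000 reads of the library size scaled by TMM). Limits from counts cover counting error only. *Phf6* went from 64.2 ± 7.15 to 20.3 ± 2.36 CPM (SD, n = 3, log2 fold change -1.66, adjusted p = 9.32e-05 from edgeR), lower in every library labelled as knockout. Counts per gene cannot tell where in *Phf6* the remaining reads lie. Of 8 myeloid and progenitor markers, 4 were higher with loss of *Phf6* (*Itgam*, *Cebpa*, *Mpo* and *Elane*), 2 were lower (*Kit* and *Cd34*) and 2 did not pass. With single libraries left out 2 to 5 were higher. Of all genes tested, 21.5% were called higher and 22.7% lower. *Spi1*, the gene of PU.1, had between 1122 and 1784 counts in every library. The stem cell factor receptor gene *Kit* had between 31001 and 41368 counts in *WT Phf6,RE9a* and between 3679 and 6040 in *VC Phf6,RE9a* libraries. GFP and RE9a were not analysed here, so the sort could not be checked against them.

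*Tlr2* and *Tlr4* were higher with loss of *Phf6*, 4.51-fold and 4.67-fold, while the *Myd88* level differed by less than the spread between libraries. Of the 10 genes, 8 had enough counts for the test. At an adjusted p under 0.05 from edgeR's quasi-likelihood test, *Tlr2* and *Tlr4*, 2 genes, were higher with loss of *Phf6* and 6 did not pass. None of the 8 was lower, with 0 lower also at an unadjusted p under 0.05 and 0 with DESeq2 or limma. Over all 14169 genes tested, 21.5% were called higher and 22.7% lower, so the share of these genes called higher is near that of all genes. Every *VC Phf6,RE9a* library lay above every *WT Phf6,RE9a* library for *Tlr2* and *Tlr4* and for 28.9% of all genes tested. The reverse was so for 0 of the 10 genes and for 28.4% of all genes tested. *Tlr4* reached the count filter only in the *VC Phf6,RE9a* libraries, so its being tested and its groups lying apart were not independent. With at least 10 counts required in every library, *Tlr4* was no longer tested and 1 gene was called higher.

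**Figure D1:**
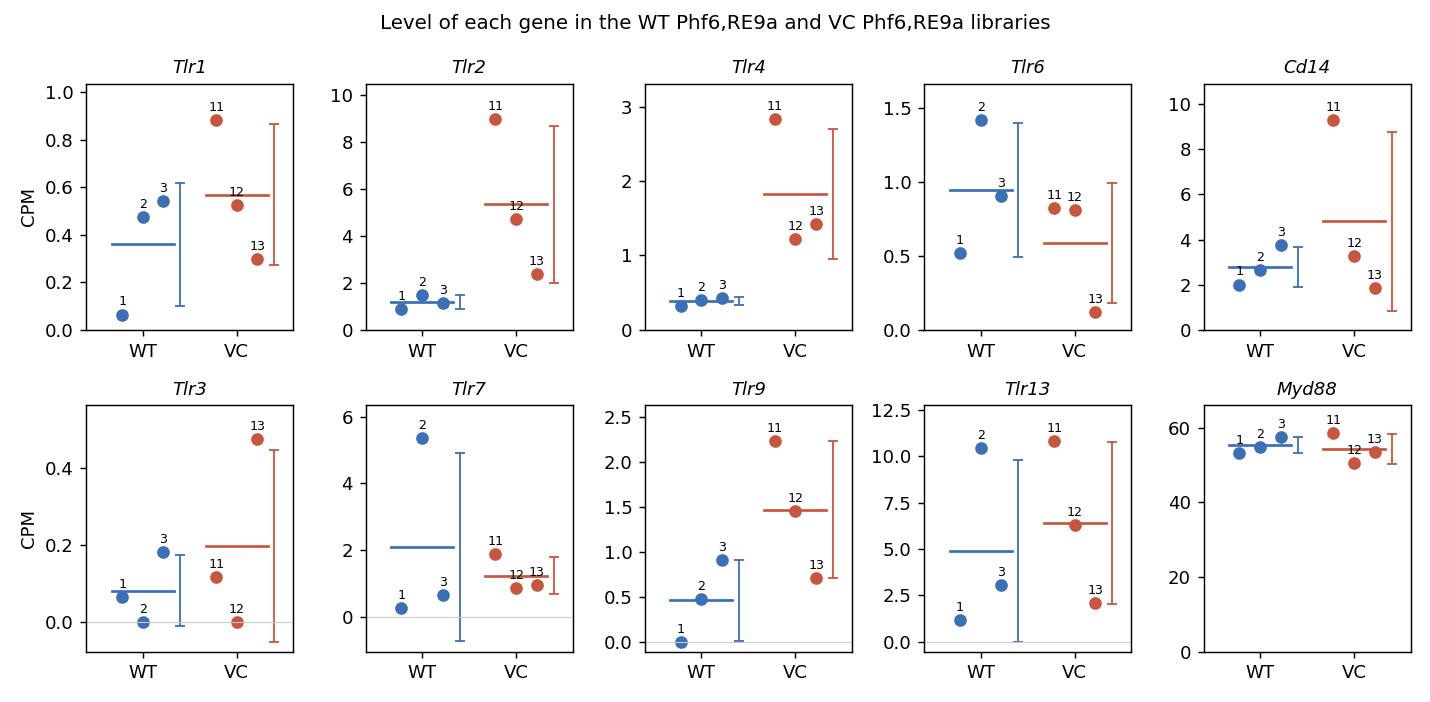
Level of each gene in CPM (vertical axes, linear, each with its own range) in the *WT Phf6,RE9a* (blue) and *VC Phf6,RE9a* (red) libraries, with replicate numbers beside the points, the group mean as a line and the SD (n = 3) as a bar. *Tlr2* and *Tlr4* do not overlap between the groups, *Myd88* lies between 50.5 and 58.5 CPM in all 6 libraries, and *Tlr7* and *Tlr13* are far higher in *WT Phf6,RE9a* replicate 2 than in the other 2 libraries of that group.

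Among the surface receptors, *Tlr2* (ENSMUSG00000027995, chromosome 3, 83836272 to 83841767, GRCm38) had counts of 14, 22 and 19 in the *WT Phf6,RE9a* and of 152, 81 and 40 in the *VC Phf6,RE9a* libraries. The lowest *VC Phf6,RE9a* library was above the highest *WT Phf6,RE9a* library, and the *VC Phf6,RE9a* libraries differed 3.78-fold among themselves in CPM. The level rose from 1.18 ± 0.293 to 5.35 ± 3.34 CPM (SD, n = 3), which is a log2 fold change of 2.17 (standard error 0.51, 95% interval 1.00 to 3.35, adjusted p = 0.0106 from edgeR). *Tlr2* passed the threshold under all 12 alternatives, with an adjusted p of 0.0406 at the highest.

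*Tlr4* (ENSMUSG00000039005, chromosome 4, 66827584 to 66930284) had counts of 5, 6 and 7 in the *WT Phf6,RE9a* and of 48, 21 and 24 in the *VC Phf6,RE9a* libraries. The groups were apart, with replicate 11 the highest for *Tlr4* as for *Tlr2*. The level rose from 0.385 ± 0.0530 to 1.82 ± 0.876 CPM (SD, n = 3), which is a log2 fold change of 2.22 (standard error 0.45, 95% interval 1.17 to 3.28, adjusted p = 0.00603 from edgeR). *Tlr4* reached the count filter of 0.617 CPM only in the *VC Phf6,RE9a* libraries, so that a gene like it could be tested only where it was high in 1 group. It passed under all 11 alternatives that gave it a value.

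*Tlr6* (chromosome 5, 64952031 to 64960097) had counts of 8, 21 and 15 in the *WT Phf6,RE9a* and of 14, 14 and 2 in the *VC Phf6,RE9a* libraries. The groups overlapped, and the log2 fold change of -0.68 had a 95% interval from -2.19 to 0.83 (adjusted p = 0.430 from edgeR). *Tlr1* (chromosome 5, 64924679 to 64933563) had 1, 7 and 9 counts against 15, 9 and 5 and was not tested. *Tlr1* and *Tlr6*, the partners of TLR2, lie 18467 bases apart, and 15.3% of the 50-base stretches of the *Tlr1* transcript also occur in that of *Tlr6*. How reads were divided between this pair is therefore uncertain. Per length, *Tlr2* was at 0.390 ± 0.0955 FPKM beside 0.253 ± 0.12 for *Tlr6* and 0.107 ± 0.0766 for *Tlr1* in *WT Phf6,RE9a* cells (SD, n = 3). In *VC Phf6,RE9a* cells the same levels were 1.76 ± 1.10 FPKM for *Tlr2*, 0.156 ± 0.108 for *Tlr6* and 0.168 ± 0.0877 for *Tlr1*. The lowest *Tlr2* value in *VC Phf6,RE9a* cells, 0.774 FPKM, was above the highest value of either partner.

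Among the endosomal receptors 0 passed the test, with 0 also at an unadjusted p under 0.05 and 0 with DESeq2 or limma, and the *WT Phf6,RE9a* libraries differed widely. *Tlr13* (ENSMUSG00000033777, chromosome X, 106143204 to 106160493), whose product binds bacterial ribosomal RNA, had counts of 18, 154 and 51 in the *WT Phf6,RE9a* and of 184, 108 and 35 in the *VC Phf6,RE9a* libraries. Each group held a high and a low library, with an 8.94-fold range in *WT Phf6,RE9a* and a 5.22-fold range in *VC Phf6,RE9a* cells. The log2 fold change was 0.39 (standard error 0.80, 95% interval -1.46 to 2.25, adjusted p = 0.722 from edgeR). That interval holds changes of over 2-fold in either direction. Without *WT Phf6,RE9a* replicate 2 it was 1.57 (adjusted p = 0.127), and without *VC Phf6,RE9a* replicate 11 it turned to -0.22 (adjusted p = 0.874).

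*Tlr7* (ENSMUSG00000044583, chromosome X, 167304929 to 167330558), the receptor for single-stranded RNA, had counts of 4, 79 and 11 in the *WT Phf6,RE9a* and of 32, 15 and 16 in the *VC Phf6,RE9a* libraries. *WT Phf6,RE9a* replicate 2 was above all other libraries and the other 2 *WT Phf6,RE9a* libraries were below all of *VC Phf6,RE9a*. The log2 fold change was -0.74 (standard error 0.95, 95% interval -2.94 to 1.46, adjusted p = 0.560 from edgeR), and without that replicate it turned to 1.38 (adjusted p = 0.110). The neighbouring gene *Tlr8* had counts of 8, 10 and 13 in the *WT Phf6,RE9a* and of 47, 27 and 6 in the *VC Phf6,RE9a* libraries, with no excess in *WT Phf6,RE9a* replicate 2. Its log2 fold change was 1.23 (adjusted p = 0.168 from edgeR), and it passed only without *VC Phf6,RE9a* replicate 13 (1.70, adjusted p = 0.0219).

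*Tlr9* (ENSMUSG00000045322, chromosome 9, 106222598 to 106226883), the receptor for unmethylated CpG DNA, had counts of 0, 7 and 15 in the *WT Phf6,RE9a* and of 38, 25 and 12 in the *VC Phf6,RE9a* libraries. The groups overlapped at the lowest *VC Phf6,RE9a* library. The log2 fold change was 1.64 (standard error 0.83, 95% interval -0.28 to 3.56, adjusted p = 0.146 from edgeR), and it ran from 1.06 to 2.61 with single libraries left out. *Tlr3* (chromosome 8, 45395665 to 45411080), the receptor for double-stranded RNA, had 1, 0 and 3 counts against 2, 0 and 8 and was not tested. At this depth no difference in *Tlr3* was detectable. Of the other mouse receptors, *Tlr5*, which binds flagellin, had 0, 0 and 1 counts against 6, 13 and 2, *Tlr12* had between 2 and 5 counts in every library and *Tlr11* at most 3.

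*Cd14* (ENSMUSG00000051439, chromosome 18, 36725074 to 36726736) had counts of 31, 39 and 62 in the *WT Phf6,RE9a* and of 158, 56 and 31 in the *VC Phf6,RE9a* libraries. Only *VC Phf6,RE9a* replicate 11 stood above the *WT Phf6,RE9a* libraries. The log2 fold change was 0.78 (standard error 0.58, 95% interval -0.57 to 2.12, adjusted p = 0.312 from edgeR), and without that replicate it turned to -0.13 (adjusted p = 0.838).

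*Myd88* (ENSMUSG00000032508, chromosome 9, 119335934 to 119341411) had counts of 822, 811 and 953 in the *WT Phf6,RE9a* and of 992, 869 and 903 in the *VC Phf6,RE9a* libraries. The groups overlapped, and within a group the highest library was at most 1.16 times the lowest in CPM. Mean levels were 55.3 ± 2.17 and 54.2 ± 4.0 CPM in *WT Phf6,RE9a* and *VC Phf6,RE9a* cells, respectively (SD, n = 3). The fold change was 0.981 with a 95% interval from 0.848 to 1.13 (adjusted p = 0.824 from edgeR), so the interval holds no change as large as 1.5-fold. *Myd88* overlaps *Acaa1a* on the opposite strand, which had between 693 and 1216 counts, and the strandedness of the counting is not given in the sources used here. Reads of this pair may not have been told apart.

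**Figure D2:**
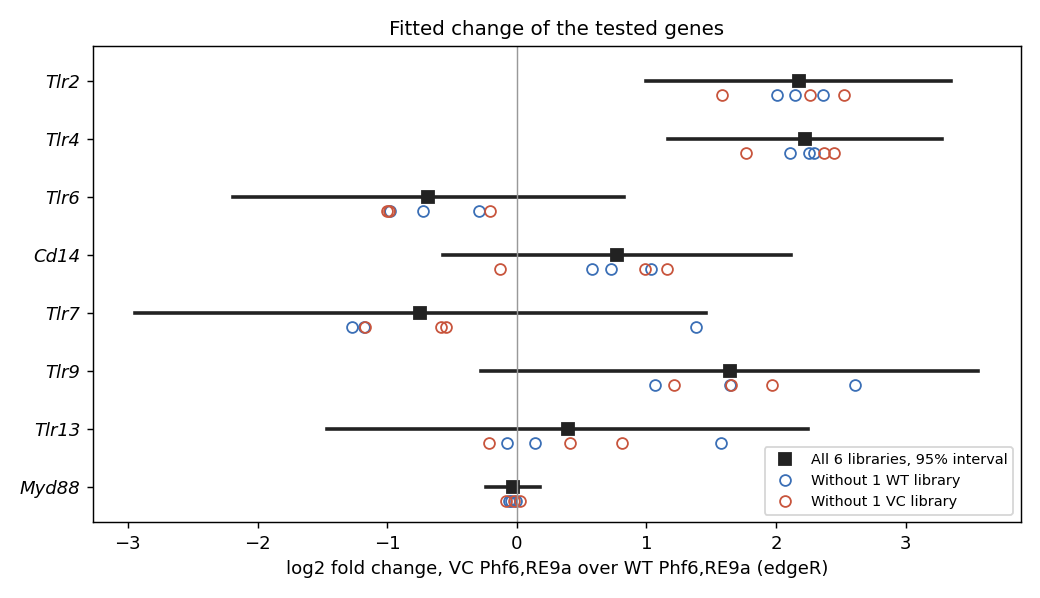
Log2 fold change with loss of *Phf6* (*VC Phf6,RE9a* relative to *WT Phf6,RE9a*, horizontal axis) for the 8 tested genes, as squares with 95% intervals from edgeR on all 6 libraries and as open circles with 1 library left out (blue for a *WT Phf6,RE9a* library, red for a *VC Phf6,RE9a* library). *Tlr2* and *Tlr4* stay above 1.5 in every fit drawn, whereas *Tlr7* runs from -1.27 to 1.38 and *Tlr13* from -0.22 to 1.57.

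Per length, *Myd88* was by far the most abundant of the 10 genes in both groups. It stood at 21.3 ± 0.732 FPKM in *WT Phf6,RE9a* and 20.8 ± 1.5 FPKM in *VC Phf6,RE9a* cells (SD, n = 3). *Cd14* followed with 1.77 ± 0.548 and 3.02 ± 2.50 FPKM. In *WT Phf6,RE9a* cells the order of the means was then *Tlr13*, *Tlr7*, *Tlr2*, *Tlr6*, *Tlr9*, *Tlr1*, *Tlr4* and *Tlr3*. In *VC Phf6,RE9a* cells it was *Tlr2*, *Tlr13*, *Tlr9*, *Tlr4*, *Tlr7*, *Tlr1*, *Tlr6* and *Tlr3*. The place of *Tlr7* in *WT Phf6,RE9a* cells rested on replicate 2. Its median there, 0.161 FPKM, was below those of *Tlr2* (0.377) and *Tlr6* (0.241). Between neighbours in these orders the ranges of the 3 libraries overlapped, except between *Myd88* and *Cd14* in both groups and between *Tlr4* and *Tlr3* in *WT Phf6,RE9a* cells. The FPKM of the 8 receptors summed to between 0.866 and 4.93 in the *WT Phf6,RE9a* and between 2.14 and 7.53 in the *VC Phf6,RE9a* libraries, below the lowest *Myd88* value of 19.5 in each case.

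Markers of mature cell types also differed between the groups, and in bulk samples fewer cells of a type and less RNA per cell cannot be told apart. The counts of markers called stand beside 21.5% called higher and 22.7% called lower of all genes tested. Of 9 neutrophil markers, 9 were higher with loss of *Phf6*, and their sum went from between 144 and 443 CPM to between 911 and 3480 CPM. The *VC Phf6,RE9a* library with the highest sum, replicate 11, was also highest in *Tlr2*, *Tlr4*, *Tlr9*, *Tlr13* and *Cd14*. Replicate 13, with the lowest sum, was also lowest in *Tlr2*, *Tlr9*, *Tlr13* and *Cd14*. This order was not particular to neutrophil markers, as the monocyte marker sum was also highest in replicate 11 and lowest in replicate 13. The B cell marker sum was lowest in replicate 13 too. Within *WT Phf6,RE9a*, the surface receptor sum was highest in replicate 2, at 3.79 CPM, where the neutrophil sum was lowest, at 144 CPM. That receptor sum included *Tlr2* at 1.49 CPM and *Tlr6*, which did not pass the test, at 1.42 CPM. *Tlr4* was highest of the group in replicate 3, at 0.423 CPM, where the neutrophil sum was highest, at 443 CPM. Of 8 B cell markers, 5 were tested and all 5 were higher (5 to 8 with single libraries left out), with sums of 2.66 to 8.04 CPM against 26.0 to 74.2 CPM. With *WT Phf6,RE9a* sums this low, such markers could reach the count filter through the *VC Phf6,RE9a* libraries alone. Being tested and being higher were therefore not independent. Of 9 macrophage markers, 6 were tested and 2 were higher, 3 without *WT Phf6,RE9a* replicate 2 and 0 with any other library left out, with sums of 8.10 to 15.1 CPM against 17.6 to 20.9 CPM. *Vsig4* and *Timd4*, genes of tissue macrophages, had at most 3 counts in every library. Of 8 dendritic cell markers, 4 were tested and 2 were higher (1 to 3 with single libraries left out), with sums of 4.86 to 8.46 CPM against 43.2 to 60.4 CPM. The limit given for the B cell markers could hold for the dendritic cell markers too. Of 6 monocyte markers, 2 were higher and 2 lower (1 to 2 lower with single libraries left out), with sums of 168 to 172 CPM against 91.6 to 176 CPM. In *WT Phf6,RE9a* replicate 2, where *Tlr7* and *Tlr13* were high, the neutrophil sum was the lowest and the macrophage sum the highest of its group, at 144 and 15.1 CPM. This was not particular to macrophage markers. The sums of mast cell, monocyte and myeloid and progenitor markers were also highest of the group in that library, at 18450, 172 and 3578 CPM. All 6 erythroid markers were higher with loss of *Phf6*, and of 7 T and NK cell markers 1 was tested and higher. The T and NK cell sums were 0.648 to 1.45 CPM against 6.11 to 8.49 CPM, so the limit given for the B cell markers holds there too. The part of these cell types in the receptor levels was not tested.

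**Figure D3:**
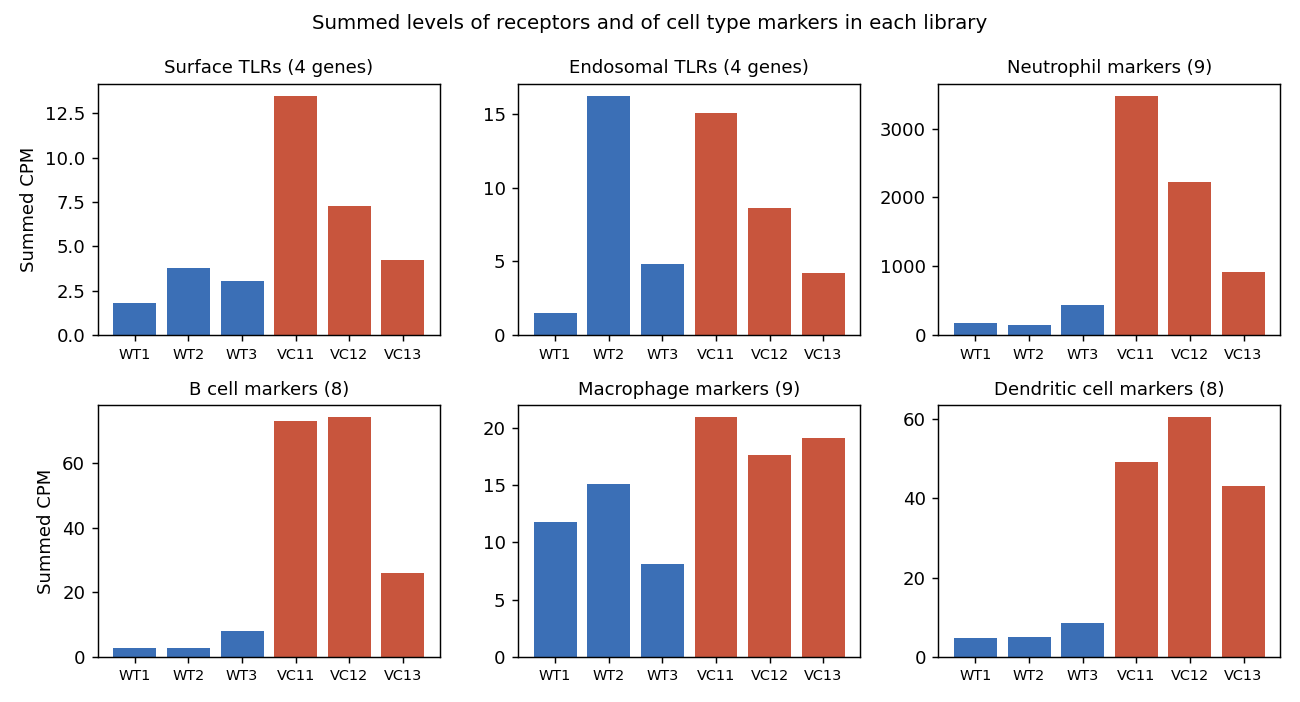
Summed CPM (vertical axes, from 0, each panel with its own range) of the surface receptors, the endosomal receptors and 4 lists of cell type markers in each of the 6 libraries, blue for *WT Phf6,RE9a* and red for *VC Phf6,RE9a*. The surface receptors and the neutrophil markers are both highest in *VC Phf6,RE9a* replicate 11, at 13.5 and 3480 CPM. The endosomal receptors are highest in *WT Phf6,RE9a* replicate 2, at 16.3 CPM. Within *WT Phf6,RE9a*, the surface receptor sum, which takes in *Tlr1* and *Tlr6* too, is also highest in replicate 2, where the neutrophil markers are lowest.

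Among the other genes of the pathway, more were called lower than higher. Of 85 genes in 7 lists (accessory proteins, other adaptors, kinases and ligases, transcription factors, negative regulators, IL-1 family receptors and response genes), 74 were tested and 15 of these were higher and 28 lower with loss of *Phf6* (edgeR, adjusted p under 0.05). These are 20.3% and 37.8% of the genes tested, beside 21.5% and 22.7% of all genes. The median log2 fold change was -0.17, beside 0.01 over all genes. The number of higher genes was 8 without *VC Phf6,RE9a* replicate 11. The 6 mast cell markers, of which 5 were lower, summed to 11881 to 18450 CPM in *WT Phf6,RE9a* and 1189 to 1696 CPM in *VC Phf6,RE9a* libraries. Within *VC Phf6,RE9a*, their sum was highest in replicate 13, where the sum of the response genes was lowest, at 83.9 CPM. Within *WT Phf6,RE9a*, both sums were lowest in replicate 3, at 11881 CPM for the mast cell markers and 444 CPM for the response genes. The highest *WT Phf6,RE9a* library was replicate 2 for the mast cell markers and replicate 1 for the response genes. The part of mast cells in the pathway counts was not tested. The lists were written with earlier results of these data known, and several of their NF-κB genes are ones the study itself displays.

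Of the 14 proteins that chaperone or assist the receptors, 12 were tested, 5 were higher and 2 lower (median log2 fold change 0.10). With single libraries left out, 2 to 4 were higher, fewest without *VC Phf6,RE9a* replicate 11 or 12 or *WT Phf6,RE9a* replicate 2, and 1 to 3 were lower, fewest with any *VC Phf6,RE9a* library left out. *Cd180*, a receptor-like relative of TLR4 that lacks a signaling domain, fell from 10.5 ± 1.19 to 2.02 ± 0.452 CPM (SD, n = 3), with a log2 fold change of -2.38 (adjusted p = 0.000285 from edgeR). *Lgmn*, a protease that cleaves endosomal receptors, rose by 2.44 on the log2 scale (adjusted p = 0.00283), and *Slc15a3*, a transporter of the endolysosome, rose by 1.73 (adjusted p = 0.0127). *Unc93b1*, which carries endosomal receptors out of the endoplasmic reticulum, was at 50.6 ± 12.5 and 52.0 ± 3.76 CPM (SD, n = 3, log2 fold change 0.04). *Hsp90b1*, the chaperone of most Toll-like receptors, fell by 0.34 on the log2 scale (adjusted p = 0.0232), and in 4 of the 6 fits with a library left out it missed the threshold. *Ap3b1*, a trafficking subunit, had a log2 fold change of 0.05 (adjusted p = 0.781).

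Genes around the lipopolysaccharide receptor, were named after their values were seen. *Lbp*, which binds lipopolysaccharide in blood, had 8, 6 and 42 counts against 135, 97 and 48, with a log2 fold change of 2.22 (adjusted p = 0.0334 from edgeR). In 4 of the 6 fits with a library left out it missed the threshold. *Lbp* reached the count filter in only 1 *WT Phf6,RE9a* library and in all 3 *VC Phf6,RE9a* libraries. *Ly96*, the gene of the MD-2 protein that holds lipopolysaccharide for TLR4, had 35, 50 and 59 counts against 23, 37 and 28, with a log2 fold change of -0.83 (adjusted p = 0.0637). Its groups were apart, and it passed the threshold under 4 of 12 alternatives. *Ly86*, the partner of the *Cd180* product, was higher by 1.44 (adjusted p = 0.0343), and it missed the threshold in 4 of those fits as well.

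Among the other adaptors, 3 of 5 were tested and 1 was higher (median log2 fold change 0.56). *Pik3ap1*, which links the receptors to phosphoinositide 3-kinase, had counts of 9, 7 and 17 in the *WT Phf6,RE9a* and of 143, 73 and 39 in the *VC Phf6,RE9a* libraries. Its groups were apart and its log2 fold change was 2.82 (adjusted p = 0.00516 from edgeR). *Pik3ap1* reached the count filter in only 1 *WT Phf6,RE9a* library and in all 3 *VC Phf6,RE9a* libraries, so it was tested through the group where it was high. *Ticam1*, the gene of the TRIF adaptor of TLR3 and TLR4, was at 22.9 ± 2.44 and 23.1 ± 1.27 CPM (SD, n = 3). *Tirap*, which bridges MyD88 to TLR2 and TLR4, had a log2 fold change of 0.56 (adjusted p = 0.255).

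All 17 kinases and ligases downstream of the adaptors were tested, with 2 higher and 5 lower (median log2 fold change -0.15). These counts were 1 to 2 higher and 3 to 6 lower with single libraries left out, the 3 being without *VC Phf6,RE9a* replicate 11. *Tab2* fell by 0.54 on the log2 scale (adjusted p = 0.00113 from edgeR) and *Tab1* rose by 0.80 (adjusted p = 0.000774), and both encode partners of the kinase TAK1. *Ikbkb*, the gene of a kinase that frees NF-κB from its inhibitors, fell by 0.58 (adjusted p = 0.00742). *Irak1*, a kinase recruited by MyD88, had a log2 fold change of -0.20 (adjusted p = 0.0595). Of 9 transcription factors, 2 were higher and 5 lower (median log2 fold change -0.46), and 1 was higher when any library but *WT Phf6,RE9a* replicate 2 was left out. *Rel*, which encodes the NF-κB subunit c-Rel, fell from 144 ± 34.2 to 11.3 ± 4.64 CPM (SD, n = 3), with a log2 fold change of -3.67 (adjusted p = 0.000145). The subunit genes *Nfkb2* and *Nfkb1* fell by 1.00 (adjusted p = 0.00357) and by 0.46 (adjusted p = 0.00914). *Rela* had a log2 fold change of -0.31 (adjusted p = 0.0807). *Irf8*, a factor of monocyte and dendritic cell development, rose by 1.77 (adjusted p = 0.00467). *Irf7*, which acts below TLR7 and TLR9 and is named after its values were seen, had 409, 1322 and 356 counts against 2497, 2207 and 2410, with *WT Phf6,RE9a* replicate 2 again the highest of its group. Its log2 fold change was 1.61 (adjusted p = 0.0299), and in 5 of the 6 fits with a library left out it missed the threshold.

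Of 13 negative regulators of the pathway, 2 were higher, or 1 without *VC Phf6,RE9a* replicate 11, and 6 lower (median log2 fold change -0.08). *Tnfaip3* (the A20 ubiquitin editor), *Zfp36* (which marks cytokine mRNA for decay) and *Dusp1* (a MAP kinase phosphatase) had the highest levels of the list and fell by 2.03, 1.84 and 1.13 on the log2 scale (adjusted p = 0.00302, 0.000944 and 0.00233 from edgeR). *Socs1*, an inhibitor of cytokine signaling, fell by 1.53 (adjusted p = 0.000422). Of the 6 IL-1 family receptors, most of which also signal through MyD88, 1 was higher and 4 lower (median log2 fold change -0.87). With single libraries left out 3 were lower, except without *WT Phf6,RE9a* replicate 3, where 4 were. *Il1rl1*, the IL-33 receptor gene, fell from 4505 ± 1113 to 2278 ± 133 CPM (SD, n = 3), with a log2 fold change of -0.98 (adjusted p = 0.00471). *Il1rap*, the shared co-receptor, fell by 0.76 (adjusted p = 0.00277), and *Il1rl2*, the IL-36 receptor gene, rose by 0.75 (adjusted p = 0.00408).

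Of 21 genes that Toll-like receptor signaling induces in myeloid cells, 14 were tested, 2 were higher and 6 lower (median log2 fold change -1.11), and with single libraries left out 1 to 3 were higher and 5 to 7 lower. The cytokine genes *Tnf* and *Il6* fell by 4.39 (adjusted p = 0.000198 from edgeR) and 5.13 (adjusted p = 7.22e-05), and *Nfkbiz*, the gene of a nuclear IκB protein, by 3.28 (adjusted p = 0.000232) on the log2 scale. *Il1b* had a log2 fold change of -0.74 (adjusted p = 0.291). *Il12b*, *Il10*, *Cxcl1* and *Ifnb1* had at most 3 counts in every library. Whether these changes differ from those of *Tlr2* and *Tlr4* by more than the spread was not tested.

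**Figure D4:**
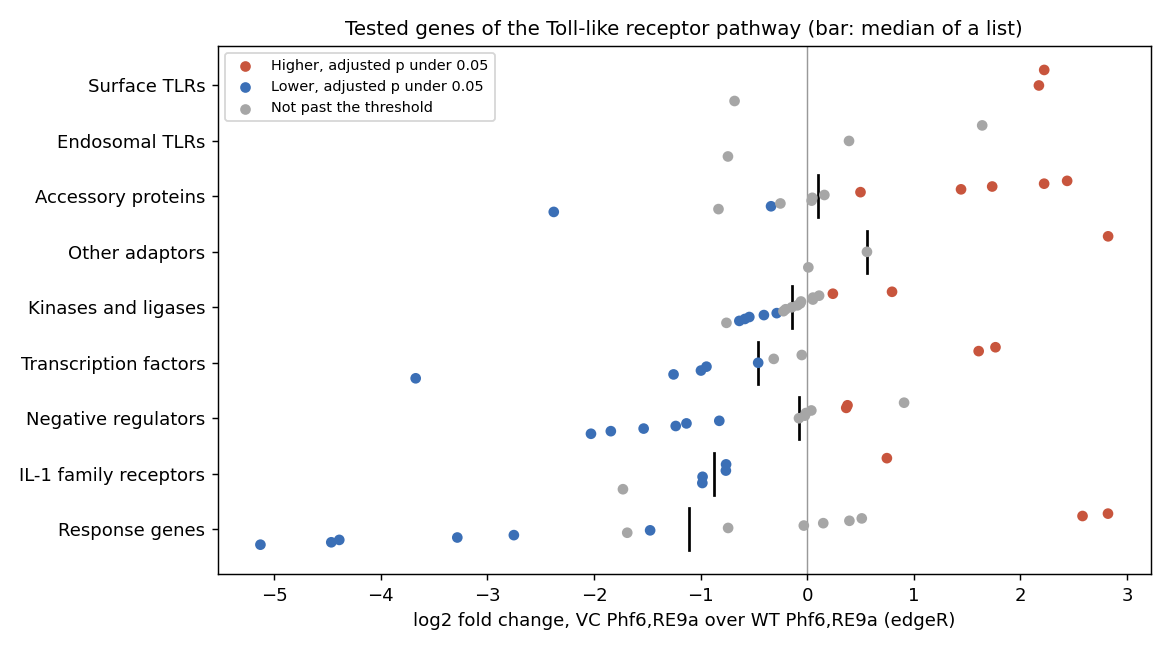
Log2 fold change with loss of *Phf6* from edgeR (*VC Phf6,RE9a* relative to *WT Phf6,RE9a*, horizontal axis) for each tested receptor and each tested gene of 7 pathway lists (rows), in red or blue where the adjusted p is under 0.05 and in grey otherwise, with a bar at the median of a list. Height within a row only separates the points. *Tlr2* and *Tlr4* lie to the right of 2, while the medians run from -1.11 for the response genes to 0.56 for the other adaptors.

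The genes with the pattern most like that of a member were sought by Pearson's r of log2 CPM over the 6 libraries among all genes tested. For *Tlr4*, the member with the smallest p, these were *Gm48604* (r = 0.996), *Ifi211* (0.995) and *mt-Atp6* (0.992), and 167 genes had an r over 0.95. For *Myd88* they were *Gm37592* (0.969), *Trp53rka* (0.951) and *Gm14023* (0.939). The points share their libraries and fall into 2 groups, so r takes in the difference between the groups and is given as a description.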

How the data were processed

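The authors deposited 1 table with whole-number read counts per Ensembl gene, not normalized, and with FPKM values, that is counts that the authors divided by listed gene length and by a library size scaled between libraries. Columns of the authors' own comparison (mean normalized counts, log2 fold changes and p-values) were not used. The submitters' processing notes name Bowtie 0.12.0 and mm8 without a role. GENCODE M21 (GRCm38) holds 54409 of the identifiers in the table and gives 98.3% of them identical gene bounds, so coordinates are stated on GRCm38. The counting tool and strandedness are not given in the sources used here.

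Genes with at least 0.617 CPM in 3 libraries (filterByExpr) entered edgeR 4.0.16 under R 4.3.3. TMM scaling, quasi-likelihood F tests and Benjamini-Hochberg adjustment ran over all 14169 of them, and each standard error is derived from the log2 fold change and its F. Log2 CPM used a prior count of 2. The fit was tested on simulated data. Every pair of libraries within a group differed beyond counting noise (chi-square per gene of 10.7 or more). Alternatives were DESeq2, which the study's methods name, RLE size factors, other count filters, limma on log2(FPKM + 1) and log2(FPKM + 0.1), each library left out and a 2-fold minimum. Applying these to the pathway genes was chosen after seeing the data. The members and lists were chosen with earlier results of these data known. Named genes are the members, the other Toll-like receptors and, per list, the 3 most abundant genes and the 3 of smallest p, with the 3 genes of highest r to *Myd88* and to the member of smallest p. Figures used matplotlib 3.10.9 in Python 3.11.15.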

Additional observations from a re-analysis of the deposited data

How the results depend on the processing

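The alternatives were DESeq2 1.42.0, RLE size factors, a minimum of 10 counts per library or no filter at all, limma 3.58.1 on log2(FPKM + 1) and on log2(FPKM + 0.1), and each library left out. Of the 10 genes, 2 were called higher under each alternative except the minimum of 10 counts, where 1 was because *Tlr4* was not tested, and 0 were called lower. With single libraries left out, pathway genes called higher numbered 8 to 13. A 2-fold minimum left 9 pathway genes higher and 14 lower. Fold changes of the tested members, *Phf6*, *Tlr8* and the named pathway and sensor genes were recomputed, and among these signs turned only for genes that did not pass the test. With single libraries left out, *Myd88* ran from -0.080 to 0.022 on the log2 scale, *Tlr13* from -0.22 to 1.57 (also -0.079 without *WT Phf6,RE9a* replicate 1), *Cd14* from -0.13 to 1.16, *Tlr7* from -1.27 to 1.38, *Unc93b1* from -0.081 to 0.25, *Ticam1* from -0.081 to 0.072, *Ap3b1* from -0.070 to 0.16 and *Aim2* from -0.34 to 0.27. *Aim2* was at 8.85e-05 with limma on log2(FPKM + 0.1). *Tlr1* and *Tlr3* gave a value with DESeq2 (0.65 and 1.24) and with no count filter (0.63 and 1.14) and passed with neither. RLE size factors moved the median of all genes by -0.010. No paired analysis was possible because the groups share no replicate number. Low counts limit the precision for the receptors, as does the spread between libraries. In *WT Phf6,RE9a* libraries that spread was 20.6-fold for *Tlr7* and 8.94-fold for *Tlr13* in CPM.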

Other observations

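Sensors of microbial nucleic acids and cell wall products outside the Toll-like family were also read, from a list of 10 genes of which 10 were tested. In *VC Phf6,RE9a* cells 6 were higher and 2 lower at edgeR's adjusted p under 0.05, beside 21.5% and 22.7% of all genes tested. With single libraries left out, 4 to 6 were higher and 2 lower. Their median log2 fold change was 0.83, beside 0.01 over all genes tested. *Ifih1*, the gene of the RNA sensor MDA5, rose from 22.8 ± 7.75 to 65.2 ± 6.26 CPM (SD, n = 3), with a log2 fold change of 1.51 (adjusted p = 0.00133). *Ddx58*, the gene of the RNA sensor RIG-I, rose from 52.0 ± 17.1 to 108 ± 4.45 CPM (SD, n = 3), with a log2 fold change of 1.05 (adjusted p = 0.00476). *Nlrp3*, the inflammasome sensor, fell from 62.9 ± 36.1 to 5.72 ± 4.43 CPM (SD, n = 3), with a log2 fold change of -3.46 (adjusted p = 0.00448). *Aim2*, a sensor of cytosolic DNA, was at 43.7 ± 18.1 and 41.5 ± 2.34 CPM (SD, n = 3, log2 fold change -0.07). In *WT Phf6,RE9a* cells, *Ifih1* and *Ddx58* were highest in replicate 2, with 468 and 1059 counts, the library in which *Tlr7*, *Tlr13* and *Irf7* were also highest of the group.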
